A study of Mus musculus with 6 samples.

Results

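The 34 genes described here encode the BCL2 family, the caspases and cofactors that act behind it, and p53 with its targets, in cultured mouse myeloid-derived suppressor cells (MDSCs) given mitochondrial DNA. They were taken from a fixed list of symbols, and each of the 34 symbols matched 1 of the 55359 rows of the count table. MDSCs, immature cells of the myeloid lineage, suppress T cell responses. C57BL/6 bone marrow was cultured for 4 days in 40 ng/ml GM-CSF plus 40 ng/ml IL-6, which yields MDSCs, and the polymorphonuclear MDSCs were isolated by kit. The re-seeded cells of the mtDNA group received 250 ng/ml mitochondrial DNA complexed with a lipid transfection reagent, and RNA was taken after 12 h. Blank cells shared the strain, the cytokines and the isolation. The labels do not say whether they received the lipid reagent, so an effect of the reagent and one of the DNA cannot be told apart. Each group had 3 RNA-seq libraries, and the age and sex of the mice, any pooling of animals and separate cultures are not stated, so the p-values rest on a library-to-library spread that may be technical.

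In the intrinsic pathway of apoptosis, BH3-only proteins sense damage or lack of survival signals and bind other members of the BCL2 family. Anti-apoptotic members hold them, and hold BAX and BAK, in check. Once free, BAX and BAK open the outer mitochondrial membrane, cytochrome c leaves and joins APAF1 in the apoptosome, and caspases are activated there. The transcription factor p53 feeds this pathway by inducing several BH3-only genes, and also induces genes of cell cycle arrest, repair and metabolism. MDM2 and MDM4 restrain p53, and MDM2 is itself a p53 target. Neutrophils and their precursors are short-lived cells known to depend on MCL1 for survival.

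Library totals ran from 4018360 to 4911103 counts, so that a single read was worth 0.204 to 0.249 CPM, the unit of counts scaled to a common library total. The first principal component held 68.1% of the variance and set all blank libraries apart from all mtDNA libraries. On the second principal component, which held 8.97% of the variance, mtDNA 1 lay away from mtDNA 2 and mtDNA 3. Markers of granulocytic cells were present but uneven. The calprotectin genes S100a8 and S100a9 averaged 1698 and 1819 CPM in blank cells, while Ly6g, the surface antigen that defines polymorphonuclear MDSCs, averaged 4.87 CPM in blank and 5.81 CPM in mtDNA cells. The monocyte receptor gene Csf1r averaged 1424 CPM in blank cells. Transcripts typical of both lineages were therefore read together. In such bulk samples, fewer cells of a type and less RNA per cell cannot be told apart.

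After mtDNA transfection 8 of the 33 tested genes rose and 0 fell. The risen genes were Cdkn1a, Plk2, Bak1, Bcl2l11, Mcl1, Mdm2, Pmaip1 and Bcl2l1, and they rose by 1.13-fold to 1.56-fold, less than 2-fold in each case. They included promoters of cell death, inhibitors of cell death and regulators of p53 and the cell cycle. A gene counted as risen or fallen when its adjusted p was under 0.05 in edgeR's quasi-likelihood test, with Benjamini-Hochberg adjustment over all 11190 genes tested. Across those genes 11.9% were called higher and 5.98% lower, against 24.2% and 0% of these 33. The median log2 fold change was 0.05 for the 33 genes and -0.01 for all genes tested. The remaining 25 genes lay between log2 -0.35 and 0.17, 12 above 0 and 13 below. For 23 of the 25 the 95% interval of the fold change stayed within 1.5-fold in either direction, and for 9 within 1.2-fold. Bik, a BH3-only gene, had 9 reads in blank and 8 in mtDNA libraries and was below the count filter, too few reads to show a difference.

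**Figure D1:**
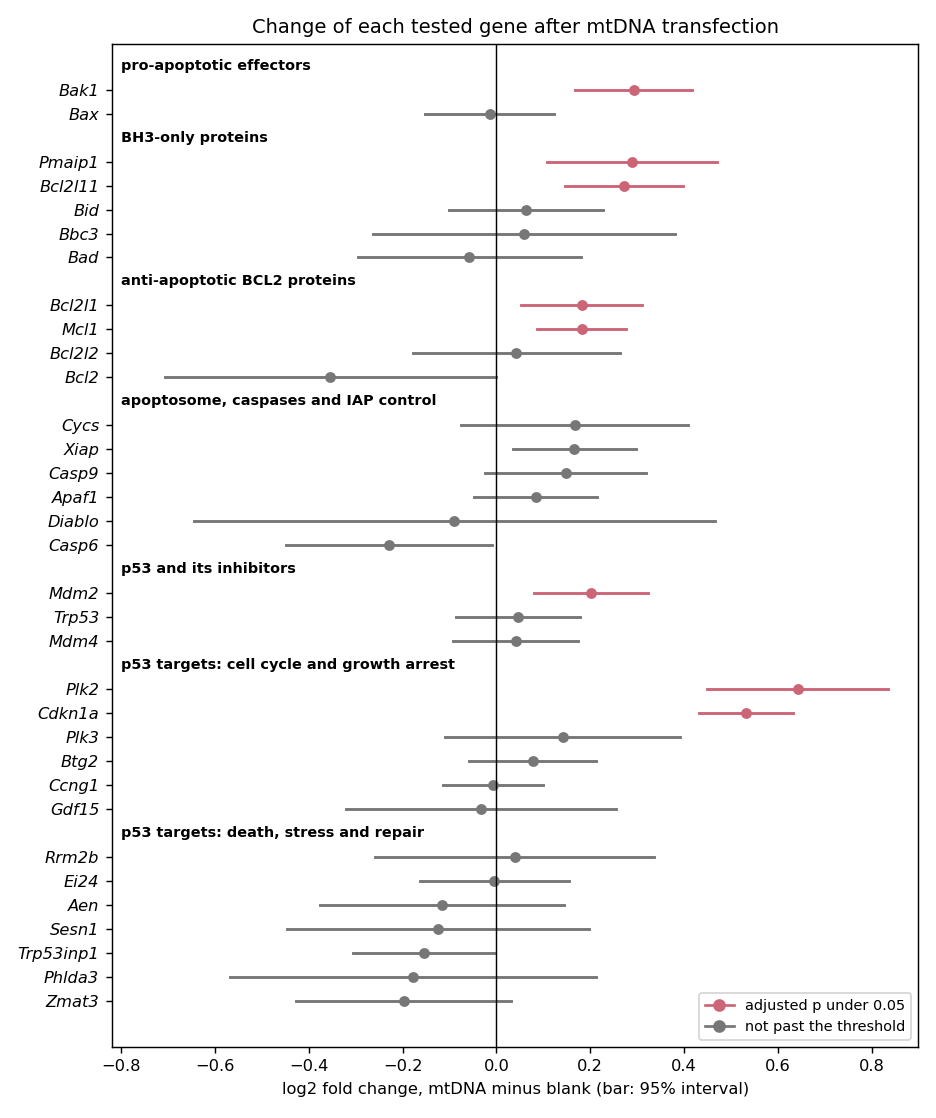
Points give the log2 fold change (mtDNA minus blank) of the 33 tested genes, ordered by role, and bars the 95% interval from edgeR, with 3 libraries per group. The 8 genes past the threshold (red) all lie to the right of 0, from 0.18 to 0.64, and no gene lies past the threshold on the left.

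The calls were not equally firm. Cdkn1a and Plk2 passed in each of 16 alternative analyses, with an adjusted p of 0.00124 at most, and Bak1 in each but the test against a fold of 1.2. DESeq2 called 5 of the 8 genes, and the other calls depended on the scaling between libraries or on single libraries, as given with each gene. Against a fold of 1.2 only Cdkn1a and Plk2 passed. The split of 8 higher and 0 lower became 4 and 2 with upper-quartile scaling factors, 3 and 4 with library totals as the only scaling, and 5 and 1 after removal of a trend with GC content. In each of the 16 alternatives the log2 fold changes of the 8 genes stayed above 0.

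The levels of these genes differed widely before any treatment. Per kilobase of annotated exon, blank cells carried most RNA of Mcl1, at 209.6 ± 1.9 CPM per kb (mean ± SD of 3 libraries), followed by Cdkn1a at 108 ± 3.42, Ccng1 at 80 ± 0.895, Bak1 at 70.8 ± 1.7 and Bax at 66.5 ± 2.64 CPM per kb. Bak1 and Bax did not differ beyond the sum of their SDs. At the other end stood Bcl2 at 1.69 ± 0.323, Rrm2b at 1.66 ± 0.148, Diablo at 0.868 ± 0.239 and Bik at 0.431 ± 0.269 CPM per kb. Among the anti-apoptotic genes the order was Mcl1, Bcl2l1 (22 ± 0.466 CPM per kb), Bcl2l2 (6.84 ± 0.668) and Bcl2, and each step was larger than the sum of the SDs. From Apaf1 down to Aen, 18 genes in all, no gene was separated from its neighbour in the order by more than that sum, and neither were Pmaip1 and Bid, Bcl2 and Rrm2b, or Diablo and Bik. Levels per kb use the full annotated exon length and so understate genes of which only a short form is made. Diablo, Bcl2l2 and Bax share 30.7%, 12.2% and 11.7% of their read-length windows with a gene model on their own strand. Reads there may be uncounted, so the levels and places of these genes in the order may be too low.

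**Figure D2:**
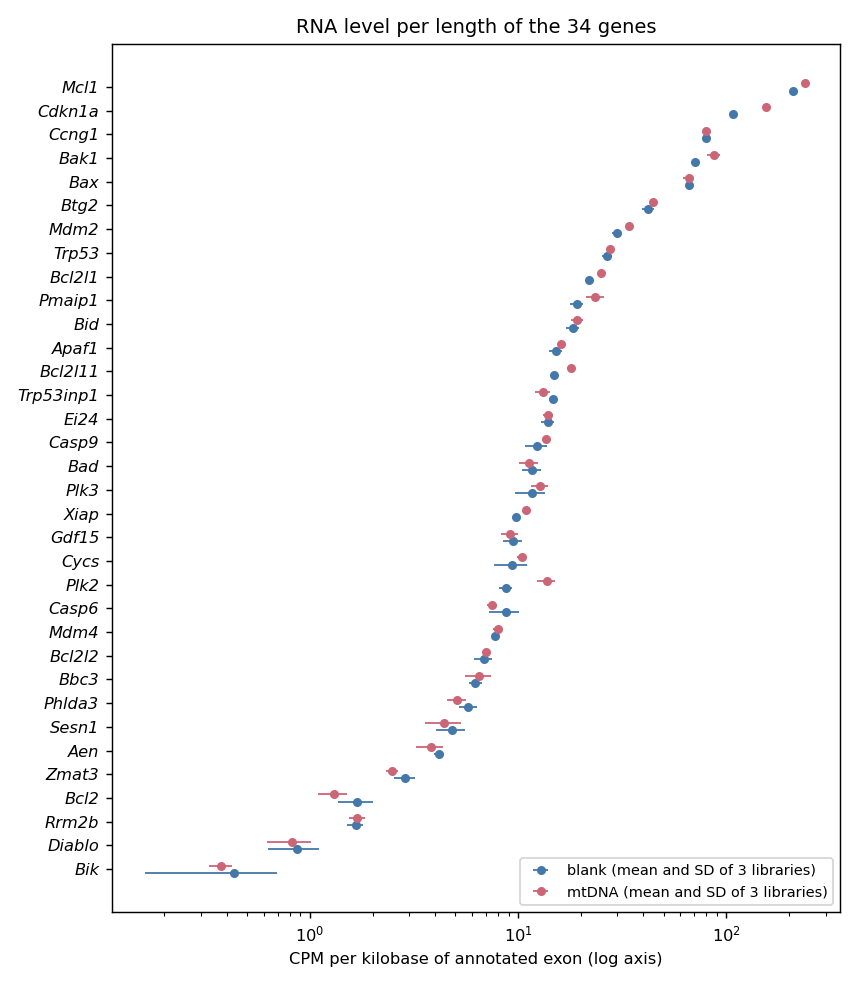
Each row gives the level of a gene as CPM per kilobase of annotated exon on a log axis, with points for the mean and bars for the SD of 3 blank (blue) and 3 mtDNA (red) libraries. Mcl1 leads in both groups and Bik is lowest, and the red point of Plk2 is displaced furthest from the blue.

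Of the pore-forming effectors, Bak1 rose and Bax did not pass the test. Bak1 (ENSMUSG00000057789), which encodes BAK, stood at 169.5, 175 and 167 CPM in blank 1, 2 and 3 and 226, 202 and 199.8 CPM in mtDNA 1, 2 and 3. Every mtDNA library was above every blank library, with mtDNA 1 the highest. The mean went from 170.4 ± 4.1 to 209 ± 14.5 CPM (mean ± SD, n = 3 per group), a 1.22-fold rise (log2 0.29 ± 0.06, SE; edgeR adjusted p = 0.00111). Exons of Ggnbp1 overlap those of Bak1 on the other strand, and the strand setting of the counts is not given in the sources used here, so that reads of such opposing genes cannot be told apart. Bax (ENSMUSG00000003873), the partner of Bak1 in opening the outer membrane and a classic p53 target, stood at 103, 109.6 and 102 CPM in blank 1, 2 and 3 and 101, 99.6 and 111 CPM in mtDNA 1, 2 and 3. Its groups overlapped fully, and the 95% interval of its log2 fold change was -0.15 to 0.12 (edgeR adjusted p = 0.912). Bax overlaps the gene model Gm45808 on its own strand, so reads in the overlap may be uncounted.

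Among the BH3-only genes 2 of 5 tested members rose, too few genes to set against the 11.9% of all genes called higher. Bcl2l11, which encodes BIM, a binder of all anti-apoptotic family members, stood at 118, 121 and 119 CPM in blank 1, 2 and 3 and 144, 151 and 138 CPM in mtDNA 1, 2 and 3. The blank libraries lay close together and all mtDNA libraries were above them. It rose 1.21-fold, from 119 ± 1.56 to 144 ± 6.84 CPM (log2 0.27 ± 0.06, SE; edgeR adjusted p = 0.00246). With library totals alone as the scaling the call of Bcl2l11 ended (adjusted p = 0.065). Pmaip1, which encodes NOXA, a selective antagonist of MCL1 and a p53 target, stood at 53.9, 54.9 and 48 CPM in blank 1, 2 and 3 and 70.8, 64 and 58 CPM in mtDNA 1, 2 and 3. The groups did not overlap, but the lowest mtDNA library and the highest blank library were close. Pmaip1 rose 1.22-fold, from 52.3 ± 3.74 to 64.3 ± 6.39 CPM (log2 0.29 ± 0.087, SE; edgeR adjusted p = 0.0243). That call ended in DESeq2 (adjusted p = 0.131), under upper-quartile factors (0.0856) and library totals (0.145), with the GC trend removed (0.138), and without blank 3 (0.127), mtDNA 1 (0.131) or mtDNA 2 (0.0592).

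The other BH3-only genes gave values near those of blank cells. Bbc3, which encodes PUMA, the strongest p53-induced BH3-only protein, had 13.3 ± 0.934 and 13.7 ± 1.95 CPM (log2 0.06, 95% interval -0.26 to 0.38, edgeR adjusted p = 0.841). Bid, which links death receptors to mitochondria after cleavage by caspases, had 65.1 ± 4.87 and 68.2 ± 4.42 CPM (edgeR adjusted p = 0.653). Bad, which is held inactive by growth factor kinases through phosphorylation, had 29.9 ± 3.13 and 28.8 ± 3.03 CPM (edgeR adjusted p = 0.788). In each of the 3 genes the libraries of the groups overlapped. Exons of Bid lie opposite exons of Bcl2l13, and those of Bad opposite Gpr137, on the other strand. Bcl2, Casp9, Diablo, Plk3, Ei24 and Rrm2b, described below, also have exons opposite those of another gene or gene model.

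Anti-apoptotic genes rose in 2 of 4 members, again too few to set against the 11.9% of all genes called higher. Mcl1 (ENSMUSG00000038612), the most abundant of the 34 genes, stood at 724, 714 and 712 CPM in blank 1, 2 and 3 and 835, 817 and 786 CPM in mtDNA 1, 2 and 3. All mtDNA libraries lay above all blank libraries, by a step that was small beside the level. Its mean went from 716 ± 6.48 to 813 ± 24.7 CPM, a 1.13-fold rise (log2 0.18 ± 0.046, SE; edgeR adjusted p = 0.00694). The call of Mcl1 ended under upper-quartile factors (adjusted p = 0.0997), library totals (0.293) and with the GC trend removed (0.0536), and its log2 fold change was 0.0624 under library totals. Bcl2l1, which encodes BCL-XL, stood at 101, 99.2 and 103 CPM in blank 1, 2 and 3 and 118, 115 and 111 CPM in mtDNA 1, 2 and 3, again with no overlap. It rose 1.13-fold, from 101 ± 2.14 to 115 ± 3.61 CPM (log2 0.18 ± 0.062, SE; edgeR adjusted p = 0.0458). This was the least firm of the 8 calls: it ended in 11 of the 16 alternatives, among them DESeq2 (adjusted p = 0.234), library totals (0.472) and the omission of any single library (0.054 to 0.132).

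Bcl2 itself, the founding member of the family, had an estimate below 0 that did not pass the test, with 14.1, 13.4 and 18.9 CPM in the blank libraries and 10.2, 11.6 and 14 CPM in the mtDNA libraries. Blank 3 was the highest, and the lowest blank library was below the highest mtDNA library. Its log2 fold change was -0.35 with a 95% interval of -0.71 to -0.0018 (edgeR adjusted p = 0.166), from 206 reads in blank and 160 in mtDNA libraries. Without blank 3 it was -0.195 (edgeR adjusted p = 0.537). Under library totals Bcl2 passed the threshold (log2 -0.473, edgeR adjusted p = 0.0419). Bcl2l2, which encodes BCL-W, had 30.5 ± 2.98 and 31.3 ± 1.47 CPM (edgeR adjusted p = 0.834), with overlapping groups and an overlap with the gene model Gm20521 on its own strand.

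**Figure D3:**
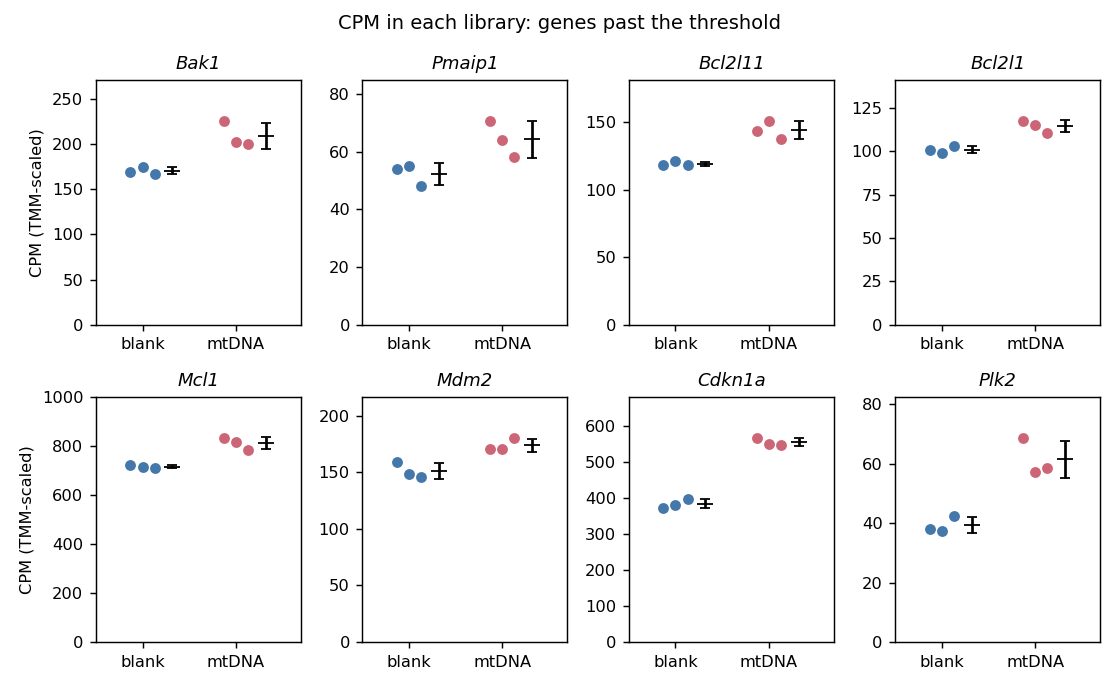
Each panel shows 1 of the 8 risen genes, with CPM on a linear axis from 0, a point per library (blue blank, red mtDNA) and the mean with SD beside it, n = 3 per group. In every panel the 3 red points lie above the 3 blue points, with the widest gap for Cdkn1a and Plk2 and narrow gaps for Pmaip1, Bcl2l1 and Mdm2.

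Ratios between interacting partners do not depend on the scaling between libraries. For 10 pairs, which are opposing partners except for the p53 inhibitors Mdm2 and Mdm4, the log2 ratio of reads was compared by a two-sided exact permutation test, which with 3 against 3 libraries cannot go below p = 0.1. The groups overlapped in 9 of the 10 pairs. The exception was Bcl2l11 to Mcl1, whose log2 ratio was -2.58 ± 0.027 (SD, n = 3) in blank libraries and -2.49 ± 0.055 in mtDNA libraries (difference 0.09, exact permutation p = 0.1, adjusted over the 10 pairs 0.429), and without mtDNA 2 the difference was 0.0589. Bax to Bcl2l1 had 0.05 ± 0.083 and -0.14 ± 0.13 (difference -0.20, exact permutation p = 0.2). Bax to Bcl2 had the opposite sign of difference, with 2.77 ± 0.3 and 3.12 ± 0.16 (difference 0.35, exact permutation p = 0.2), which was 0.185 without blank 3. Over the 10 pairs the difference was above 0 in 6 and below 0 in 4, and the sign of Xiap to Casp9 turned with the omission of single libraries.

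**Figure D4:**
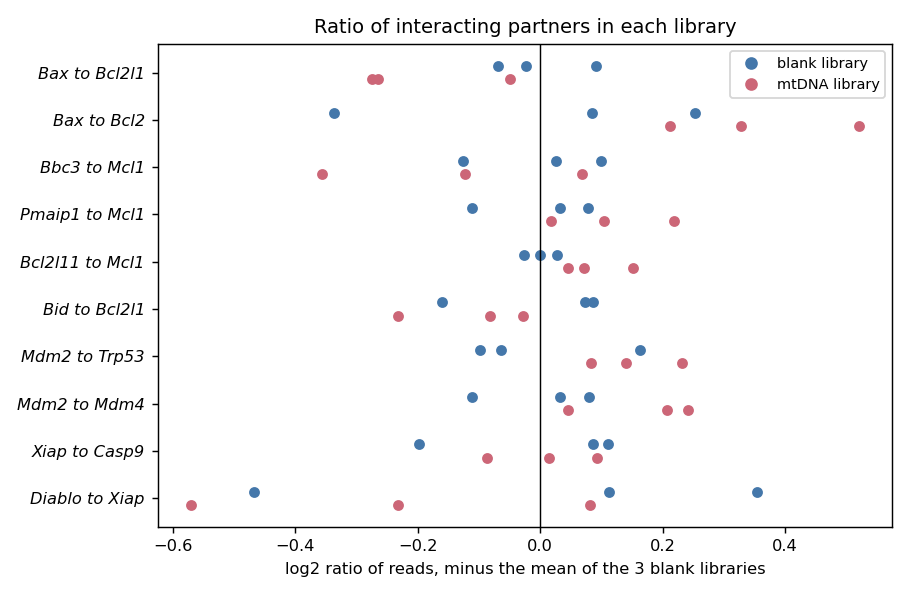
For each of 10 pairs of interacting partners, points give the log2 ratio of reads in a library minus the mean of the 3 blank libraries, in blue for blank and red for mtDNA. Blue and red points overlap in 9 pairs, and the red points stand just above the blue in Bcl2l11 to Mcl1.

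No gene of the apoptosome group passed the test in either direction (0 of 6 in edgeR, with Xiap and Casp6 at an unadjusted p under 0.05). Over all genes tested 17.8% passed in either direction, a share against which 6 genes are too few to set. Xiap, which encodes the direct inhibitor of effector caspases, came nearest, with 93.2, 91.8 and 92.4 CPM in the blank libraries and 107, 104 and 101 CPM in the mtDNA libraries. Its groups did not overlap (log2 0.17, 95% interval 0.03 to 0.30, edgeR adjusted p = 0.0751). Among all genes tested 17.9% had every mtDNA library above every blank library, against 9 of these 33, which were Xiap and the 8 risen genes. Casp6, an effector caspase, was the 1 gene with every mtDNA library below every blank library, against 15.6% of all genes tested. It stood at 44, 57.9 and 43.9 CPM in the blank libraries and 42.7, 43.5 and 39.4 CPM in the mtDNA libraries. Blank 2 was far above the other blank libraries, which were close to the mtDNA libraries (log2 -0.23, edgeR adjusted p = 0.149). Without blank 2 the log2 fold change of Casp6 was -0.0733 (edgeR adjusted p = 0.715). With upper-quartile factors and library totals the difference of Casp6 passed (edgeR adjusted p = 0.0442 and 0.0182).

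The other genes of this group overlapped between the groups. Casp9, the initiator caspase of the apoptosome, had 63.8 ± 7.45 and 71 ± 2.5 CPM (edgeR adjusted p = 0.245). Without blank 2, the highest blank library, its log2 fold change went from 0.15 to 0.256 and passed (edgeR adjusted p = 0.0465). Apaf1, the scaffold of the apoptosome, had 137 ± 9.75 and 145 ± 4.72 CPM (edgeR adjusted p = 0.415). Cycs, which encodes somatic cytochrome c, had 31.8 ± 5.81 and 35.4 ± 1.63 CPM (edgeR adjusted p = 0.369). It shares up to 26.1% of its read-length windows with a single other gene, the pseudogene Gm10053, so its count is uncertain. Diablo, whose product relieves the block by XIAP, had 72 and 67 reads in all, and its 95% interval ran from 0.64-fold to 1.38-fold. Its exons overlap those of the gene model Gm49027 on the same strand, with which it shares 30.7% of windows, so reads could be lost there.

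The stretches before the start sites were searched for letters of known motifs, since several of these genes share p53 as a regulator. RefSeq promoter windows of the build GRCm38.p6 matched 29 of the 34 genes, in 42 windows, and the 250 bases before each start were read on both strands. Pmaip1, Bik, Trp53inp1, Zmat3 and Rrm2b had no window. The p53 consensus decamer, the unit of which p53 elements hold a pair, was found in 8 of the 42 windows (19%) and in 7.13% of all 32851 windows. Since many of the 34 genes are listed because they are p53 targets, this share was to some degree set by the choice of genes. The 8 genes with a match were Cdkn1a and Mdm2, which rose, and Aen, Bax, Ccng1, Ei24, Sesn1 and Trp53, which did not pass the test. The 4 windows printed first set those of the risen Cdkn1a and Mdm2 beside those of Bax and Ccng1, 5′ to 3′ along the gene, with the decamer in capitals. In Cdkn1a it was found at 2 places, and the window belongs to the upstream of 2 annotated starts. The window of Plk2, the gene with the largest rise, is printed last: its capitals mark an interferon-stimulated response element core (GAAA, any 2 bases and GAAA again, here on the opposite strand) 210 to 219 bases before the start and a cAMP response element (TGACGTCA) 55 to 62 bases before it.
Cdkn1a (chr17:29090729-29090978, plus strand): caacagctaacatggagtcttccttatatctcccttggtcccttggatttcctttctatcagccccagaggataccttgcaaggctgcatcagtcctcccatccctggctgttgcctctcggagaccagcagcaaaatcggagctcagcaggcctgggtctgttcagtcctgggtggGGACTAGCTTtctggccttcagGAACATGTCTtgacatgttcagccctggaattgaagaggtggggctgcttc
Mdm2 (chr10:117710759-117711008, minus strand): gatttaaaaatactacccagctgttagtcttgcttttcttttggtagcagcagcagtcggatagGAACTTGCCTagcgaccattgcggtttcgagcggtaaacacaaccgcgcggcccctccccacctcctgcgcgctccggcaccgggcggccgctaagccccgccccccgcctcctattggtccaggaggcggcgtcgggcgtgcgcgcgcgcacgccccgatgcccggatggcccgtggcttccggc
Bax (chr7:45466899-45467148, minus strand): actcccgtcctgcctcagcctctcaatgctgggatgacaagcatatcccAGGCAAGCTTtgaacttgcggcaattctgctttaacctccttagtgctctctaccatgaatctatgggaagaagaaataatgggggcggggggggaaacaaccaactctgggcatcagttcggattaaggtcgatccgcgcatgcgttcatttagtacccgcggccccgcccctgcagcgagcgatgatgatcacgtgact
Ccng1 (chr11:40755287-40755536, minus strand): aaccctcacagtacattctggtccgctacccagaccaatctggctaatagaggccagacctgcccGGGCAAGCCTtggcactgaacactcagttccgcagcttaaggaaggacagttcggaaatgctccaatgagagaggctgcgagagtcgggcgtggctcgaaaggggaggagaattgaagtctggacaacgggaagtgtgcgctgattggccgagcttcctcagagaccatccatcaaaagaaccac
Plk2 (chr13:110394794-110395043, plus strand): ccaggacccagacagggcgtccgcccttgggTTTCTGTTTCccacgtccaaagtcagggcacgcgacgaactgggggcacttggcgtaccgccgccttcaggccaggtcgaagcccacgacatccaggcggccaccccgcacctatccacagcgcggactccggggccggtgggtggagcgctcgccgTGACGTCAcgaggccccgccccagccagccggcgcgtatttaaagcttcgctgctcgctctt

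The interferon-stimulated core was found in 1 of the 42 windows, that of Plk2, and in 2.98% of all windows. TGACGTCA was found in 3 of the 42, those of Plk2, Btg2 and Cycs, and in 1.55% of all windows. A form of the NF-kB site (GGG, any 3 bases and TTCC) was present in windows of Mcl1, Bcl2l1 and Bbc3 and in 4.65% of all windows, and the gamma-activated site (TTCNNNGAA) in 0 of the 42 and 7.02% of all windows. An AP-1 site (TGANTCA) was found in a window of Mdm4 and in 6.75% of all windows. These motifs do not overlap one another in the member windows. Windows of Bak1 and Bcl2l11, which rose, held none of the 6 motifs. Pmaip1, which also rose, had no window and was not searched. A match describes letters and not binding, and a motif outside the 250 bases would not be seen.

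Trp53 and Mdm4 did not pass the test while Mdm2 rose. Trp53 (ENSMUSG00000059552), which encodes p53, stood at 102, 112 and 112 CPM in blank 1, 2 and 3 and 116, 111 and 110.5 CPM in mtDNA 1, 2 and 3. The groups overlapped, and the 95% interval of its log2 fold change was -0.09 to 0.18 (edgeR adjusted p = 0.683). RNA counts do not report the protein, which is controlled mainly by its stability. Mdm2, the ubiquitin ligase that degrades p53, stood at 159, 149 and 146 CPM in blank 1, 2 and 3 and 171, 170.3 and 181 CPM in mtDNA 1, 2 and 3. Its libraries did not overlap between the groups, and mtDNA 3 was the highest. Mdm2 rose 1.15-fold, from 151 ± 6.83 to 174 ± 5.82 CPM (log2 0.20 ± 0.058, SE; edgeR adjusted p = 0.0185). The call ended in DESeq2 (adjusted p = 0.0801), under upper-quartile factors (0.127) and library totals (0.301), with the GC trend removed (0.109), and without blank 2 (0.0597), blank 3 (0.091) or mtDNA 3 (0.0887). Mdm4, the related inhibitor without strong ligase activity of its own, had 115 ± 4.57 and 118 ± 6.72 CPM (edgeR adjusted p = 0.725). The log2 ratio of Mdm2 to Mdm4 was 0.39 ± 0.099 in blank and 0.56 ± 0.1 in mtDNA libraries (exact permutation p = 0.2), and the difference was 0.16, or 0.109 without blank 3.

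The largest changes of the 34 genes were those of Plk2 and Cdkn1a, in the group of p53 targets that act on the cell cycle and growth. Cdkn1a (ENSMUSG00000023067), which encodes the cyclin-dependent kinase inhibitor p21, stood at 372, 380.3 and 396 CPM in blank 1, 2 and 3 and 566, 549 and 547 CPM in mtDNA 1, 2 and 3. The gap between the groups was several times the spread within them. An unnamed gene model, AC167363.2, lies opposite its exons. Its mean went from 383 ± 12.2 to 554 ± 10.7 CPM, a 1.45-fold rise (log2 0.53 ± 0.048, SE; edgeR adjusted p = 1.96e-08). Plk2 (ENSMUSG00000021701), a stress-responsive kinase of the polo family, stood at 37.9, 37.5 and 42.5 CPM in blank 1, 2 and 3 and 68.7, 57.2 and 58.6 CPM in mtDNA 1, 2 and 3. All mtDNA libraries were above all blank libraries, with mtDNA 1 the highest. Plk2 rose 1.56-fold, from 39.3 ± 2.78 to 61.5 ± 6.29 CPM (log2 0.64 ± 0.093, SE; edgeR adjusted p = 1.91e-05).

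Ccng1, Btg2, Plk3 and Gdf15 of this group did not pass the test. Ccng1, which encodes cyclin G1 and is among the most widely induced p53 targets, stood at 284, 281 and 278 CPM in blank 1, 2 and 3 and 273, 289 and 276 CPM in mtDNA 1, 2 and 3. The values of the groups were intermingled. Its 95% interval of -0.11 to 0.10 on the log2 scale (edgeR adjusted p = 0.94) lay wholly below that of Cdkn1a (0.43 to 0.63). Btg2, an anti-proliferative cofactor of RNA decay, had 115 ± 8.03 and 122 ± 3.34 CPM (edgeR adjusted p = 0.467). Plk3, a relative of Plk2, had 29.4 ± 4.85 and 32.3 ± 2.97 CPM (edgeR adjusted p = 0.474), and its interval reached up to 1.31-fold. Gdf15, a secreted stress cytokine, had 17.5 ± 1.81 and 17 ± 1.62 CPM (edgeR adjusted p = 0.904).

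Of the p53 targets of death, stress and repair, 0 of 7 passed in edgeR (Trp53inp1 alone at an unadjusted p under 0.05), and their median log2 fold change was -0.12. Over all genes tested 17.8% passed in either direction, and the median was -0.01. The 7 genes are too few to set against that share. Trp53inp1, which promotes p53-dependent death and autophagy, stood at 98.2, 96 and 90.7 CPM in the blank libraries and 82.3, 93.6 and 79.8 CPM in the mtDNA libraries. The library mtDNA 2 fell within the range of the blank libraries and the other mtDNA libraries below it (log2 -0.16, edgeR adjusted p = 0.155). The difference of Trp53inp1 passed under upper-quartile factors (adjusted p = 0.0259), library totals (0.00817) and with the GC trend removed (0.0291). Zmat3, an RNA-binding splicing regulator, had 32.7 ± 3.74 and 28.5 ± 1.89 CPM (edgeR adjusted p = 0.244) and passed under library totals (0.0372). Sesn1, an inhibitor of mTORC1 signalling, had 19.1 ± 2.98 and 17.6 ± 3.47 CPM, and Phlda3, a repressor of AKT, had 8.99 ± 0.856 and 7.92 ± 0.817 CPM (edgeR adjusted p = 0.645 and 0.573). Aen, an apoptosis-enhancing nuclease, had 24.2 ± 1.43 and 22.1 ± 3.24 CPM (edgeR adjusted p = 0.584). Ei24, a membrane protein of the endoplasmic reticulum involved in autophagy, and Rrm2b, a ribonucleotide reductase subunit that supplies nucleotides for repair, had log2 fold changes of -0.00416 and 0.04 (edgeR adjusted p = 0.979 and 0.889). In all 7 genes the libraries of the groups overlapped.

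**Figure D5:**
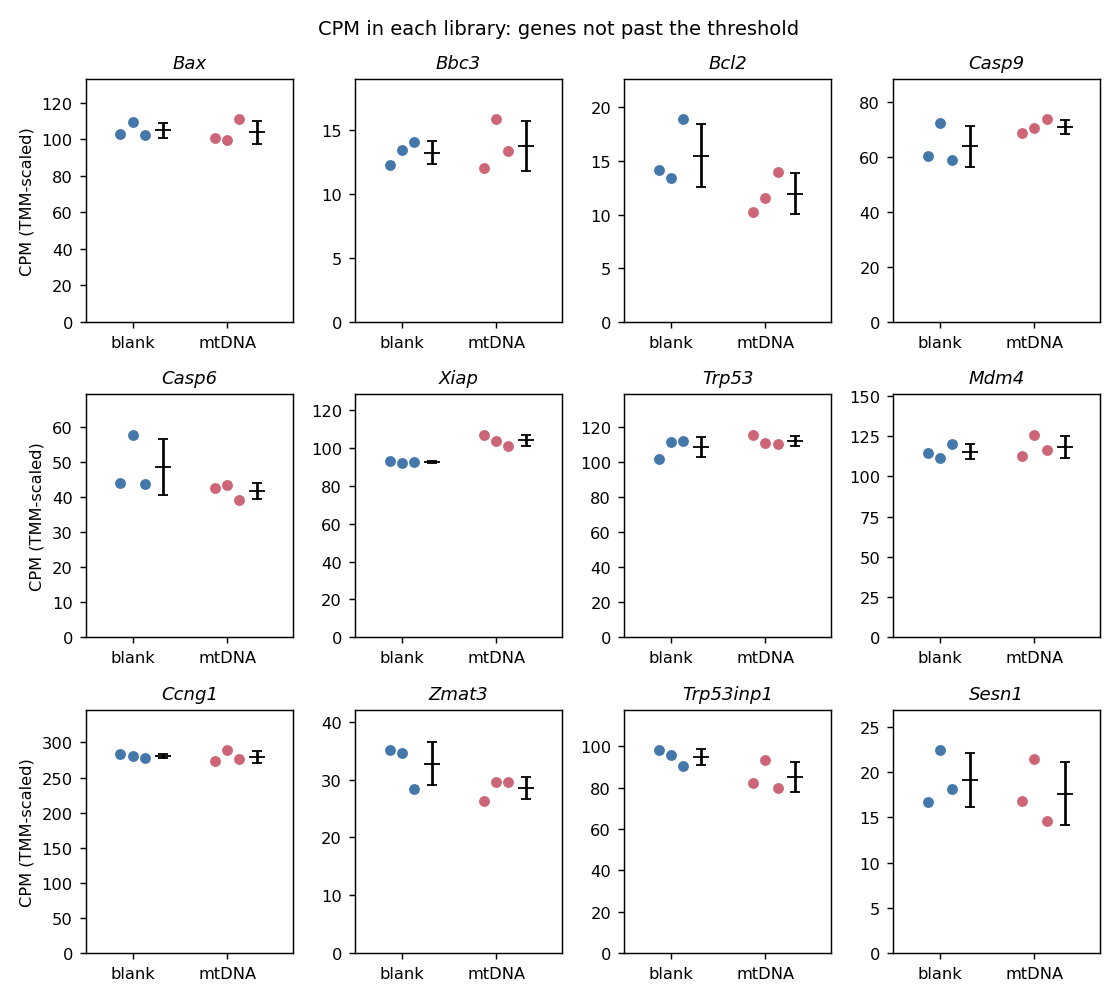
Each panel shows a gene that did not pass the threshold, with CPM on a linear axis from 0, a point per library (blue blank, red mtDNA) and the mean with SD beside it, n = 3 per group. The points of Bax, Trp53 and Ccng1 lie at the same height in both groups, and in Xiap and Casp6 the points of the groups do not overlap.

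Of 116 genes of the same pathways outside the 34, 100 were tested, and 20 rose and 5 fell. Over all genes tested 11.9% rose and 5.98% fell, so the falls stood near the share of all genes. The median log2 fold change was 0.69 for the other caspases listed, 0.17 for inhibitors of apoptosis and mitochondrial death factors, 0.08 for the rest of the BCL2 family, 0.01 for p53 regulators and -0.07 for other p53 targets, beside -0.01 for all genes tested. Trp63 and Trp73, the relatives of p53, and Casp14, Hrk and Bcl2l10 had 0 reads in all 6 libraries. Of the other caspases listed, 3 of 4 tested members rose and 0 fell, too few genes to set against the shares of all genes. Casp4, which senses intracellular lipopolysaccharide, rose 2.81-fold (log2 1.49 ± 0.10, SE; edgeR adjusted p = 1.9e-10), Casp1, the inflammasome protease, 1.87-fold (log2 0.90 ± 0.077, SE; edgeR adjusted p = 6.8e-09), and Casp8, the initiator at death receptors, 1.39-fold (log2 0.48 ± 0.061, SE; edgeR adjusted p = 3.5e-06). Among inhibitor of apoptosis proteins, apoptosome regulators and mitochondrial death factors, 9 of 21 rose and 2 fell. Xaf1, an interferon-inducible antagonist of XIAP, rose 7.01-fold, from 45.9 ± 19 to 318 ± 22.6 CPM (log2 2.81 ± 0.14, SE; edgeR adjusted p = 5.68e-13), far more than Xiap itself at 1.12-fold. Naip5 and Naip6, sensors of bacterial flagellin that resemble each other in sequence and so have uncertain counts, rose 1.48-fold and 1.46-fold (edgeR adjusted p = 3.47e-05 and 0.000255). The genes that fell were Birc5 (log2 -0.34, edgeR adjusted p = 0.0119), which encodes survivin and is expressed in dividing cells, and Dffa (log2 -0.37, edgeR adjusted p = 0.0434), the inhibitor of the caspase-activated DNase. Both of these falls ended in DESeq2 (adjusted p = 0.126 and 0.257), and that of Dffa also without blank 1 (0.119), blank 2 (0.124), mtDNA 1 (0.156) or mtDNA 3 (0.0883).

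In the rest of the BCL2 family 2 of 11 tested genes rose and 1 fell. Bcl2a1b and Bcl2a1d, near-identical copies of the anti-apoptotic gene A1 whose reads can be split or lost, rose 1.44-fold and 1.26-fold (edgeR adjusted p = 0.00124 and 0.00773), the second with an adjusted p of 0.0883 in DESeq2. Bmf, a BH3-only gene, fell from 49.7 ± 2.79 to 38.1 ± 0.712 CPM (log2 -0.38, edgeR adjusted p = 0.00381). Against shares of 11.9% higher and 5.98% lower over all genes tested, 4 of 38 tested p53 targets outside the 34 rose and 0 fell. They were Ccnd1, which encodes cyclin D1 (log2 2.01 ± 0.084, SE; edgeR adjusted p = 3.32e-14), Trim21, a cytosolic antibody receptor (log2 1.40 ± 0.12, SE; edgeR adjusted p = 5.99e-09), Trp53i11 (log2 1.02 ± 0.24, SE; edgeR adjusted p = 0.00379, 0.0583 in DESeq2) and Dglucy (log2 0.24 ± 0.069, SE; edgeR adjusted p = 0.0178). Cyclin D1 drives entry into the cell cycle, and Trim21 is also induced by interferon. Of 26 tested p53 regulators and damage kinases 2 rose, Dyrk2 and Ep300 (log2 0.40 and 0.22, edgeR adjusted p = 0.00557 and 0.0131), and 2 fell, Mdc1 and Usp10 (log2 -0.30 and -0.46, edgeR adjusted p = 0.00949 and 0.0227). These counts, like the rises among the p53 targets, stood near the shares over all genes. The falls of Mdc1 and Usp10 did not pass in DESeq2 (adjusted p = 0.0854 and 0.141). That of Usp10 also ended without blank 2 (adjusted p = 0.158), mtDNA 1 (0.055) or mtDNA 2 (0.117). Ep300 did not pass with library totals (adjusted p = 0.215) or upper-quartile scaling (0.0856), nor without blank 2 (0.0876), mtDNA 2 (0.0558) or mtDNA 3 (0.0596).

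Part of the markers of monocytes and macrophages rose as well. Of 14 such markers, none at 0 reads, 7 rose, 7 did not pass and 0 fell, and 12 had a log2 fold change above 0. Over all genes tested 11.9% rose and 5.98% fell, shares that also stand beside the marker counts below. The summed level of the 14 markers was 3941 to 4035 CPM in blank and 4921 to 5220.5 CPM in mtDNA libraries. The list includes interferon-inducible genes such as Fcgr1 (5.82-fold, edgeR adjusted p = 2.78e-14) and Ly6c2 (1.8-fold, edgeR adjusted p = 4.89e-11). The rest of the 7 were Mertk (2.09-fold), C1qb (1.27-fold), Cd68 (1.13-fold), Ccr2 (1.12-fold) and Csf1r (1.09-fold). Of 18 neutrophil markers, none at 0 reads, 1 rose and 0 fell, with summed levels of 9179 to 9661 and 9589.9 to 10339.7 CPM. For T, NK and B cells 0 of 5 tested markers passed, Ncr1 was at 0 reads in all libraries, and the sums were 30.6 to 31.5 and 32.6 to 35.8 CPM. Dendritic cell markers rose in 2 of 8 tested members, and among stromal and endothelial markers Kdr rose and Emcn was at 0 reads. Of 10 tested basophil, mast cell and eosinophil markers, Mcpt8 rose and Kit fell (0.741-fold, edgeR adjusted p = 0.00754), and Tpsb2 was at 0 reads. Gp9 rose among 4 tested erythroid and megakaryocyte markers. The part of these shifts in the changes of the 34 genes was not tested.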

How the data were processed

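Poly(A) RNA of 6 MDSC samples was sequenced as single-end 75-base reads from a directional kit, per the labels' protocols. The authors deposited 1 table of raw counts per gene, whole numbers without normalization. The submitters' processing notes list FastQC, STAR 2.7.10a, DESeq2 and the build GRCm39, and STAR's gene counting is named in the column titles, per the file headers. Annotation release and strand setting: not given in the sources used here. Symbols, exon lengths and GC content came from GENCODE M21 (GRCm38), which named 52083 of 55359 rows. No row lacked a gene ID.

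Groups came from the treatment label. The quasi-likelihood test of edgeR 4.0.16 (R 4.3.3) was run two-sided on the whole table after TMM scaling and the default filter on low counts. Fold changes are mtDNA minus blank, and their standard errors were derived from the F statistic. CPM values are TMM-scaled. At these depths 3 counts equal 0.611 to 0.747 CPM in a library, and 1.54 to 2.28 was the chi-square per degree of freedom between libraries of a group, more than sampling noise. Ratios had 0.5 counts added.

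The 34 genes and all lists were chosen with earlier results of these data known, and some pathway genes are not reported here. Each of the 34 is named, and other lists give up to 3 risen and 3 fallen genes of smallest p. Dglucy, Csf1r, Ly6g, S100a8, S100a9, Fcgr1, Ly6c2, Mertk, C1qb, Cd68 and Ccr2 were added after their values were seen. Alternatives were median-ratio, upper-quartile or no factors, limma-voom (limma 3.58.1), DESeq2 1.42.0, no filter or a filter of 1 CPM in each of 6 libraries, a test against a fold of 1.2, a block, omission of each library and, added after seeing the data, a GC correction. The fits were tested on simulated counts with known changes. There edgeR recovered 31.25% of changes of 1.2-fold, 70% of 1.5-fold and 92% of 2-fold. DESeq2 recovered 14%, 56% and 82%. The 2 sets of rates are not fully alike. Changed genes removed by edgeR's filter were left out of its rates, while DESeq2 counted genes without an adjusted p as missed. Small changes could thus be missed by either. The simulation changed a far smaller share of genes than the 17.8% called in the data, so its rates may not carry over. Promoters were read with Python 3.11.15.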

Additional observations from a re-analysis of the deposited data

How the results depend on the processing

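The scaling between libraries moved these counts: the median log2 fold change of all genes tested was -0.01 with TMM, -0.09 with upper-quartile factors, -0.13 with library totals and -0.05 with the GC trend removed. Of the 34 genes, 8 higher and 0 lower became 4 and 2 with upper-quartile factors, 3 and 4 with library totals, 5 and 1 with the GC trend removed, 5 higher in DESeq2 and 2 against a fold of 1.2. Omission of a library left 5 to 7 higher, fewest without blank 3. Over all genes 1327 higher and 669 lower became 861 and 2356 with library totals, 970 and 1504 with upper-quartile factors, 1121 and 986 with the GC trend removed, 590 and 55 against a fold of 1.2, and 187 lower in DESeq2; omissions gave 410 to 522 lower. The 25 calls among pathway genes outside the 34 became 15 in DESeq2 and 9 against a fold of 1.2. Median-ratio factors, limma-voom and both other filters left 7 or 8 of the 34 higher and 0 lower. The labels do not pair the libraries. With neighbouring title numbers as a replicate block 8 of the 34 were higher, 1387 of all genes higher and 747 lower; deviations of neighbours correlated at 0.0404 to 0.0449, and each library correlated best with its neighbour, a hint from the data and not the design.

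The direction of 15 genes turned in some alternative, each of them uncalled before and after, by at most 0.11 from 0 on the log2 scale. With upper-quartile factors and library totals the log2 fold change was -0.0166 and -0.0589 for Bbc3, -0.0135 and -0.0562 for Bid, -0.0335 and -0.0762 for Bcl2l2, -0.0295 and -0.0726 for Trp53, -0.0347 and -0.0775 for Mdm4, and -0.0368 and -0.0792 for Rrm2b. Library totals turned Apaf1 (-0.0352) and Btg2 (-0.042). Removal of the GC trend turned Bax (0.109), Mdm4 (-0.0489), Gdf15 (0.0551) and Rrm2b (-0.0465). Omissions of a library ranged from -0.0659 to 0.0211 for Bax, -0.0597 to 0.134 for Bbc3, -0.144 to 0.0384 for Bad, -0.015 to 0.121 for Bcl2l2, -0.282 to 0.0894 for Diablo, -0.00661 to 0.0706 for Mdm4, -0.0337 to 0.00372 for Ccng1, -0.117 to 0.0505 for Gdf15, -0.299 to 0.0188 for Sesn1, -0.0401 to 0.0594 for Ei24, -0.0206 to 0.112 for Rrm2b, and -0.092 to 0.0629 for the ratio of Xiap to Casp9. The cause of these shifts was not tested.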
